A study of Mus musculus with 8 samples.

Results

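Transcripts of 7 genes that are used to recognise mast cells were followed in 2 cell populations of the vessel wall, pericytes and SMCs (smooth muscle cells), taken from skeletal muscle of mice. The genes were Cpa3, Mcpt4, Cma1, Tpsb2, Kit, Fcer1a and Ms4a2, taken by their symbols as 7 of the 37979 genes with deposited values, and each symbol had 1 row. All 7 were measured above 0 in at least 1 library and so were among the 27414 genes tested. The cells came from hindlimb muscle of Ai14+/−;SM22α-Cre+ mice of both sexes, 3 to 4 months old. Every animal carried both alleles, so that Cre driven by the SM22α promoter switched on the red reporter tdTomato, and no animal without them was compared. Pericytes were sorted as PDGFRβ+tdTomato− cells and SMCs as PDGFRβ+tdTomato+ cells, after dead cells and cells positive for CD31 or CD45 had been gated out. Each population gave 4 libraries, and several sorts were pooled for each, so a library is not 1 animal. All 8 libraries have the same batch in the labels, and q values measure the spread between these pooled libraries.

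Mast cells are tissue-resident cells of the blood lineage that mature in tissues and often lie along small blood vessels. They need KIT, the receptor for stem cell factor, and they bind IgE through FcεRI, a receptor with an α chain (Fcer1a), a β chain (Ms4a2) and a γ chain (Fcer1g). Their granules hold histamine, heparin and serglycin together with proteases, among which carboxypeptidase A3 (Cpa3), the chymases (Cma1 and Mcpt4) and the tryptases (Tpsb2) are the most used markers of connective tissue mast cells. Mast cells carry CD45, so the gate was one that removes them.

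Levels are given as FPKM, the fragments of a gene divided by its length and by the size of the library, a scale on which genes of different length can be compared. Differences were tested with limma on log2(FPKM + 1), a scale that understates the change of low genes, and the q value is the p-value adjusted by the Benjamini-Hochberg method over all 27414 genes. A gene was called at a q value below 0.05. Low FPKM values fell on whole numbers of fragments in 98.1% to 98.8% of the values examined in a library, within 0.1 of a fragment, and so gave depths of about 21700000 to 26200000 fragments in pericytes and 25000000 to 26500000 in SMCs. FPKM summed to 1190435 in pericyte replicate 2 and to between 656405 and 782014 in the other 7 libraries. SMC replicate 3 stood apart for the proteases below. It had about 25400000 fragments and 12973 genes at 1 FPKM or more, within the range of the other libraries, and values are given with and without it where a protease result rests on it. The gate genes themselves varied, with Pdgfrb at 3.21 to 17.6 FPKM in pericytes and 15.6 to 91.5 FPKM in SMCs. Ptprc, the gene of CD45, was measured at 80.6 to 230.3 FPKM in pericytes and 4.34 to 11.9 FPKM in SMCs, and Pecam1, the gene of CD31, at 25 to 59.7 and 102 to 301 FPKM. The 8 libraries all list Ubb, a ubiquitin gene of every cell type, at 0, so an exact 0 in these values can be a failed estimate.

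The genes lie on 6 chromosomes (NCBI Build 37, GENCODE annotation), and all are protein-coding. Cma1 (ENSMUSG00000022225, chr14:56560290-56563498, − strand) and Mcpt4 (ENSMUSG00000061068, chr14:56678581-56681147, − strand) lie close together on chromosome 14, each with 1 annotated transcript of 5 exons. Cpa3 (ENSMUSG00000001865, chr3:20115516-20142080, − strand) has 1 transcript of 11 exons, and Tpsb2 (ENSMUSG00000033825, chr17:25503486-25505804, + strand) has 2 transcripts. Kit (ENSMUSG00000005672, chr5:75970941-76052747, + strand) has 6 transcripts, the longest of 21 exons. Fcer1a (ENSMUSG00000005339, chr1:175151402-175157360, − strand) has 1 transcript, and Ms4a2 (ENSMUSG00000024680, chr19:11690013-11698209, − strand) has 3.

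The promoters of Cpa3, Mcpt4 and Cma1 are printed because these proteases were listed at 0 in SMC replicate 3. That of Kit is printed because Kit was measured in that library, at 3.01 FPKM. Each is 300 bases of RefSeq sequence in GRCm38.p6, from 250 bases before the transcription start to 50 bases after it, in the direction of the gene. RefSeq gave a promoter for 6 of the 7 genes, and Tpsb2 was not among them. Capitals mark matches, on either strand, to GATAA, which is the core of the sites that GATA factors bind. They also mark matches, again on either strand, to TATAAA, known as the TATA box. The Cpa3 window is chr3:20242132-20242431 (− strand), the Mcpt4 window chr14:56062261-56062560 (− strand), the Cma1 window chr14:55944626-55944925 (− strand) and the Kit window chr5:75574737-75575036 (+ strand).
Cpa3: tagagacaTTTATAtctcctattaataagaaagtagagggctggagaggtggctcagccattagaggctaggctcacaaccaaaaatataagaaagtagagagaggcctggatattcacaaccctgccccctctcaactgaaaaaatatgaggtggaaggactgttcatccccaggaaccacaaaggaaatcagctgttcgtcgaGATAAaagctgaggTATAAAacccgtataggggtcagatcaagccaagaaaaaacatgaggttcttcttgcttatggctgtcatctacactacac
Mcpt4: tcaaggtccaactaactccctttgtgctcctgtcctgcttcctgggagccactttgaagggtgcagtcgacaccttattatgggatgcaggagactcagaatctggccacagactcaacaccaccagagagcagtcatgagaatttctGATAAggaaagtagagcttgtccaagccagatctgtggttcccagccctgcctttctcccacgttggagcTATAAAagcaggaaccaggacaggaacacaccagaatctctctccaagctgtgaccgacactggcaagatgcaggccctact
Cma1: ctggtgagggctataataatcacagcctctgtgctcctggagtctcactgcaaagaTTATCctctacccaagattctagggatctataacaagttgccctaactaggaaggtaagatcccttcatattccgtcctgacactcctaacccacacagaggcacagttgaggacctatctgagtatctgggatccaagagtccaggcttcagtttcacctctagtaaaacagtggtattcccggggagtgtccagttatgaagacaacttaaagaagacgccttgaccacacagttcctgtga
Kit: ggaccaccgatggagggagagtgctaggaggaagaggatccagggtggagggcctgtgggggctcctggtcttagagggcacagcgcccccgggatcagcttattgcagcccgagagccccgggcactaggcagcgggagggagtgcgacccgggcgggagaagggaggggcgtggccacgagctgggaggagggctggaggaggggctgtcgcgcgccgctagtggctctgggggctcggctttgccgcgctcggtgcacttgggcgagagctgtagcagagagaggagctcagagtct

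GATAA was found in 5 of the 6 promoters, against 25.4% of 32851 promoters of the same length, and TATAAA in 3 of 6, against 13.6%, with 0 overlaps between the motifs. The promoters with TATAAA were those of Cpa3, Mcpt4 and Fcer1a. In Cpa3 and Mcpt4 a TATAAA began 31 and 32 bases before the start. The Kit promoter held neither motif and was the richest of the 6 in G and C, at 69.0% with 20 CpG dinucleotides, whereas Cpa3 had 43.3% with 3, Cma1 47.0% with 3 and Mcpt4 51.7% with 3, and the median promoter had 52.7% with 7. A match describes the letters in this window only.

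Transcripts of all 4 granule proteases were measured in every pericyte library, and all 4 estimates were higher there than in SMCs. Tpsb2 and Cpa3 passed the test, and Cma1 and Mcpt4 did not. Within SMCs, replicates 1, 2 and 4 held 14.6 to 17.1 FPKM of the 4 proteases in sum, and replicate 3 listed Cpa3, Mcpt4 and Cma1 at 0 and Tpsb2 at 0.192 FPKM. In bulk samples, fewer cells of a type and less RNA per cell cannot be told apart.

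Cma1, a chymase, had the highest mean level of the 7 genes in pericytes. It stood at 21.6, 31.5, 10.9 and 18.0 FPKM in pericyte replicates 1 to 4 and at 6.76, 7.16, 0 and 6.47 FPKM in SMC replicates 1 to 4. The groups did not overlap, and the 3 SMC libraries with a value lay within 1 FPKM of each other. The log2 fold change was 2.11 (SE 0.73, q = 0.0852), and the mean FPKM of pericytes (20.5 ± 8.55 (SD, n = 4)) was 4.02-fold that of SMCs, or 3.02-fold without SMC replicate 3. Without that library the log2 fold change was smaller, 1.37, and its q value was 0.0353.

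Tpsb2, a tryptase, was next in level. Its FPKM were 17.7, 20.7, 11.4 and 12.7 in pericytes and 4.57, 4.37, 0.192 and 4.57 in SMCs. Again the groups were fully separated. Pericytes had 15.6 ± 4.30 FPKM (SD, n = 4) and SMCs 3.43 ± 2.16 FPKM (SD, n = 4), with a log2 fold change of 2.11 (SE 0.53, q = 0.0281). On log2(FPKM + 1) this was the only one of the 7 genes to pass also a log2 fold change of 2, the size that the study required. The paper names no pseudocount, so its scale may differ. Without SMC replicate 3 the ratio of mean FPKM fell from 4.56 to 3.47, the log2 fold change was 1.56 and the q value was 0.00473. With 1 library left out at a time the call held without SMC replicate 1, 3 or 4, and it was lost without SMC replicate 2 or any 1 of the pericyte libraries (q up to 0.0868).

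Cpa3, a carboxypeptidase that is stored in the same granules, was lower. Pericyte libraries held 12.1, 6.07, 4.10 and 6.69 FPKM and SMC libraries 2.47, 2.67, 0 and 1.97 FPKM. These groups did not overlap either, and pericyte replicate 1 was the highest. The log2 fold change was 1.65 (SE 0.48, q = 0.0480), or 1.21 without SMC replicate 3 (q = 0.0469), and the ratio of mean FPKM was 4.07 and 3.05 respectively. Leaving out any 1 of the other 7 libraries ended the call (q up to 0.131).

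Mcpt4, the second chymase, showed the smallest difference of the 4 proteases. Its levels were 4.59, 4.30, 2.34 and 7.01 FPKM in pericytes and 3.28, 1.53, 0 and 1.61 FPKM in SMCs. The groups overlapped, because SMC replicate 1 lay above pericyte replicate 3. The log2 fold change of 1.20 (SE 0.46, q = 0.120) did not pass, and it was 0.80 (q = 0.183) without SMC replicate 3. On log2(FPKM + 0.1) it was 2.14 (q = 0.185).

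The 0 values of SMC replicate 3 stand against 30 or more fragments in each other library. Cpa3 had an estimated 349, 157, 123 and 209 fragments in pericytes and 73, 85, 0 and 62 in SMCs. For Cma1 the numbers were 427, 555, 224 and 383 in pericytes and 136, 156, 0 and 139 in SMCs, and for Mcpt4 they were 81, 68, 43 and 134 and then 59, 30, 0 and 31. A count of 0 allows up to 3 fragments, which in that library would be 0.0991 FPKM of Cpa3, 0.145 FPKM of Cma1 and 0.162 FPKM of Mcpt4. Tpsb2 was not at 0 there but at about 4 fragments, counted on its longest transcript. Fragments were amplified by PCR, so these limits cover counting error only.

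**Figure D1:**
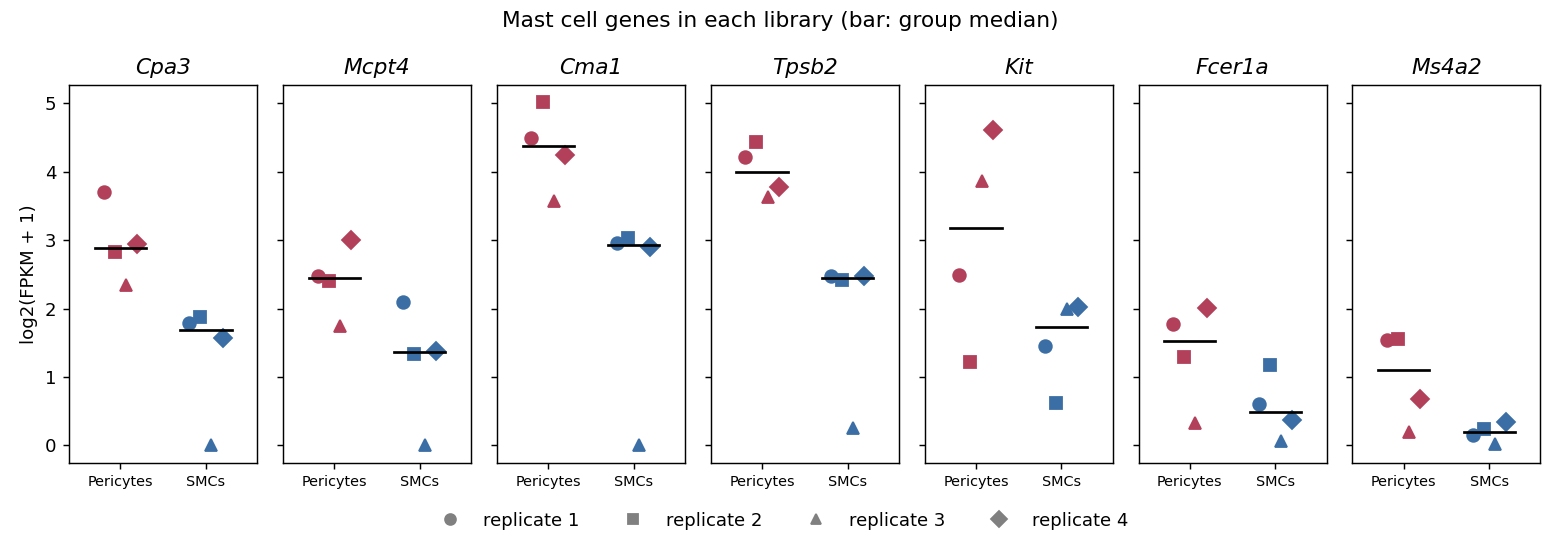
Levels of the 7 mast cell genes, as log2(FPKM + 1) on the vertical axis, in each of 4 pericyte and 4 SMC libraries. Each point is a library, its shape gives the replicate number and the bar is the group median. For Cpa3, Cma1 and Tpsb2 the pericyte points all lie above the SMC points, and SMC replicate 3 lies at or near 0 for all 4 proteases.

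Summed FPKM of the 4 proteases was 56.0, 62.5, 28.8 and 44.4 in pericytes and 17.1, 15.7, 0.192 and 14.6 in SMCs. Over the 7 libraries other than SMC replicate 3, Cma1 made up 38.0% to 50.3% of that sum, Tpsb2 26.8% to 39.7%, Cpa3 9.72% to 21.6% and Mcpt4 6.88% to 19.2%. Cma1 ranked first in 6 of these libraries and Tpsb2 in pericyte replicate 3, where it made up 39.7% and Cma1 38.0%.

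Mcpt4 belongs to a family whose members resemble each other. Its coding sequence shares 86.8% of bases with Mcpt1, 84.1% with Mcpt9 and 83.5% with Cma2, with stretches of up to 100 identical bases, so fragments could in part be counted under a relative. Mcpt1 and Cma2 were listed at 0 in all 8 libraries, and Mcpt9 was above 0 only in pericyte replicate 1 (0.0237 FPKM). Cma1 shares 63.6% with Mcpt4, and Tpsb2 shares 67.8% with the tryptase Tpsab1, which had 0.166 to 2.62 FPKM in pericytes and 0 to 1.09 FPKM in SMCs.

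None of the 3 receptor genes passed the test, and all 3 estimates were higher in pericytes. Kit, the receptor tyrosine kinase for stem cell factor, was measured at 4.63, 1.32, 13.6 and 23.4 FPKM in pericytes and at 1.74, 0.538, 3.01 and 3.08 FPKM in SMCs. Replicates 3 and 4 were the highest in both groups and replicate 2 the lowest, and the groups overlapped. Pericytes had 10.7 ± 9.90 FPKM (SD, n = 4) and SMCs 2.09 ± 1.21 FPKM (SD, n = 4). The log2 fold change was 1.52 (SE 0.75, q = 0.224), with an unadjusted 95% interval that reached below 0, and with 1 library left out it ran from 1.0 without pericyte replicate 4 (q = 0.404) to 2.13 without pericyte replicate 2 (q = 0.0501).

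The order of the libraries for Kit was not that of any protease, and the proteases also differed among themselves. In FPKM Mcpt4 was highest in pericyte replicate 4, as Kit was, and Cpa3 in pericyte replicate 1. Among pericytes Kit was lowest in replicate 2, where Cma1 and Tpsb2 were highest in FPKM. After scaling every library to one sum, as TPM, Kit was still lowest there (1.11 TPM), but Cma1 and Tpsb2 were highest in replicate 1 (31.4 and 25.6 TPM, against 26.4 and 17.4 TPM in replicate 2). Kit stood at 3.01 FPKM in SMC replicate 3, where the proteases were at or near 0. The ratio of Kit to Cpa3 in FPKM was 0.383, 0.218, 3.31 and 3.50 in pericytes. In SMC replicates 1, 2 and 4 it was 0.703, 0.201 and 1.57. Cells other than mast cells also use Kit, and their genes are given in the closing observations.

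The genes of the α and β chains of the IgE receptor were both low. Fcer1a, the chain that binds IgE, had 2.43, 1.45, 0.259 and 3.04 FPKM in pericytes and 0.529, 1.27, 0.0513 and 0.297 FPKM in SMCs, which were 45, 24, 5 and 61 against 10, 26, 1 and 6 fragments. The groups overlapped, pericyte replicate 3 lying among the SMCs. Its log2 fold change was 0.79 (SE 0.40, q = 0.240). Ms4a2, the chain that amplifies the signal, had 1.90, 1.93, 0.146 and 0.598 FPKM in pericytes and 0.113, 0.184, 0.0185 and 0.271 FPKM in SMCs. Pericyte replicates 1 and 2 stood above the rest, and pericyte replicate 3 again lay among the SMCs. The log2 fold change was 0.80 (SE 0.31, q = 0.127), and it passed when pericyte replicate 3 was left out (1.06, q = 0.0291). On log2(FPKM + 0.1) the log2 fold changes were larger, 2.01 for Ms4a2 (q = 0.0802) and 1.60 for Fcer1a (q = 0.236), and neither passed. Both genes were at 1 fragment in SMC replicate 3, that of Ms4a2 estimated on the longest transcript.

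**Figure D2:**
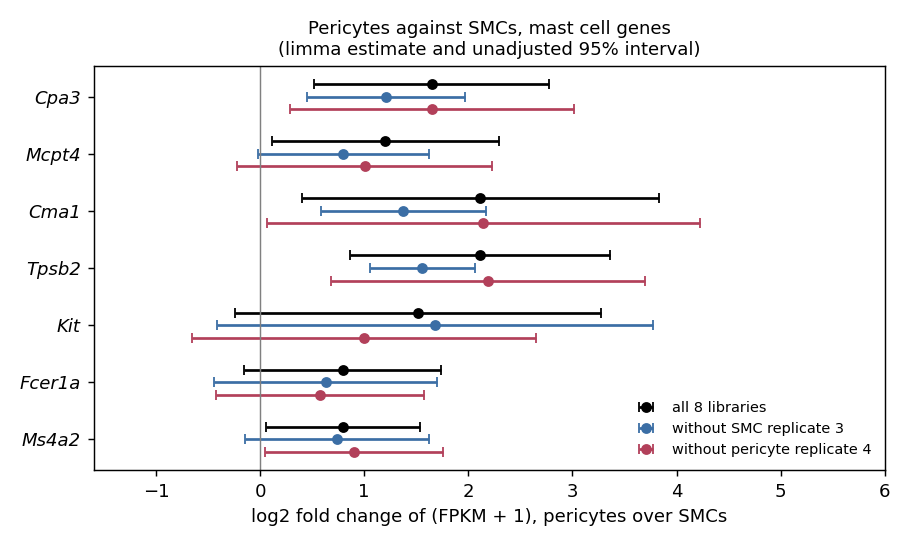
log2 fold change of (FPKM + 1), pericytes over SMCs, for the 7 mast cell genes on the horizontal axis, with the unadjusted 95% interval from limma. Black is the fit of all 8 libraries, blue the fit without SMC replicate 3 and red the fit without pericyte replicate 4. All estimates lie above 0, and the protease estimates are smaller, with narrower intervals, without SMC replicate 3.

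By mean FPKM in pericytes the order of the genes was Cma1 (20.5), Tpsb2 (15.6), Kit (10.7), Cpa3 (7.24), Mcpt4 (4.56), Fcer1a (1.79 ± 1.22 (SD, n = 4)) and Ms4a2 (1.14 ± 0.910 (SD, n = 4)), and the ranges of each pair of neighbours in this order overlapped. Without pericyte replicate 4, Kit had 6.51 ± 6.34 FPKM (SD, n = 3), below Cpa3 (7.42). Over all 4 SMC libraries, with the 0 values taken as 0, the order was that of pericytes, and over SMC replicates 1, 2 and 4 it was Cma1, Tpsb2, Cpa3, Mcpt4, Kit, Fcer1a and Ms4a2.

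Across the 7 genes, 2 were called higher in pericytes, beside 10.6% of all genes tested, and 0 were called higher in SMCs, beside 11.2%. All 7 estimates lay above 0, so no gene could be counted as higher in SMCs at any threshold. The unadjusted p-value of an exact permutation test was 0.0286 for Cpa3, Cma1 and Tpsb2, 0.0571 for Mcpt4 and 0.0857 for Ms4a2. It was 0.143 for Kit and for Fcer1a. With a log2 fold change of 2 required beside the q value, 1 gene was called, beside 3.24% of all genes. Groups separated completely, with pericytes above, for 3 of 7 genes, beside 12.1% of all genes. The median log2 fold change of the 7 genes was 1.52 and that of all genes tested 0.02. The calls of both Cpa3 and Tpsb2 were lost when the libraries were rescaled to a common sum (q = 0.105 and 0.0507), when all listed genes were tested (q = 0.101 and 0.0643) and with a pseudocount of 0.1 (q = 0.112 and 0.0585).

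Other genes of mast cell granules, surface, lineage and signalling did not move as 1 group. Of 48 such genes, 46 were tested, 16 were called higher in pericytes (beside 10.6% of all genes) and 6 higher in SMCs (beside 11.2%), with a median log2 fold change of 0.41, and 17 of the 22 calls held whichever library was left out. IgE receptor signalling held 11 of the 16 genes that were higher in pericytes.

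Among 7 other granule proteases, 5 were tested and only Ctsg, cathepsin G, which neutrophils also store, was called, 1 of 5 beside 10.6% of all genes. It had 77.2, 203, 35.6 and 25.8 FPKM in pericytes and 14.1, 11.4, 0.212 and 0.0511 FPKM in SMCs, and the groups did not overlap. Its log2 fold change was 4.0 (q = 0.0418), and the call held in 2 of the 8 fits that left out a library, those without SMC replicate 1 and without SMC replicate 2. SMC replicate 3 was again low, but so was SMC replicate 4, which had near its group's highest level of Tpsb2.

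Of 10 genes for mediators, 2 were called higher in pericytes, 2 higher in SMCs and 6 were not called, so each direction had 20% of the list, beside 10.6% and 11.2% of all genes. Srgn, the serglycin core of granules, had 1010 to 2203 FPKM in pericytes and 235 to 344 FPKM in SMCs (log2 fold change 2.27, q = 8.0e-04), and Alox5ap, which serves leukotriene synthesis, was higher by 1.73 (q = 0.0152). Many leukocytes use both. Ltc4s, the leukotriene C4 synthase, fell by 1.82 (q = 0.00572) and Ptgs1, the cyclooxygenase COX-1, fell by 2.60 (q = 9.2e-04). Hdc, the enzyme that makes histamine, had 11.8 to 27.5 FPKM in pericytes and 9.96 to 15.5 FPKM in SMCs (q = 0.175). SMC replicate 3 had 12.5 FPKM of Hdc, within the range of the other SMC libraries.

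Among 11 rows for other surface receptors, 1 was higher in pericytes and 2 in SMCs, shares of 9.09% and 18.2% beside 10.6% and 11.2% of all genes. Enpp3, the ectoenzyme CD203c, fell by 2.95 (q = 0.00100), and Ptger3, a prostaglandin E2 receptor, fell by 0.92 (q = 0.0416), a call that, of the 8 fits without a library, held in that without SMC replicate 1 alone. Adora3, an adenosine receptor, was called under 1 of its 2 identifiers only (log2 fold change 0.87, q = 0.0180), and not without pericyte replicate 1 or SMC replicates 3 or 4. Mrgprb2, the receptor by which connective tissue mast cells sense peptides and drugs, did not exceed 0.407 FPKM in any library. Il1rl1, the receptor for IL-33, had 0.468 to 2.73 FPKM in pericytes and 0.574 to 0.937 FPKM in SMCs.

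Of 7 lineage transcription factors, 1 was called higher in pericytes (14.3%, beside 10.6% of all genes) and 2 higher in SMCs (28.6%, beside 11.2%). Sfpi1 (Spi1, the gene of PU.1, a factor of many blood cells) was higher in pericytes by 1.98 (q = 0.0130). Gata2, on which mast cells depend and which endothelial cells also use, fell by 1.84 (q = 0.0245), a call that, of the 8 fits without a library, held in those without SMC replicate 1 or SMC replicate 2, and Mitf fell by 0.90 (q = 0.00703). Gata1 had 0 to 0.798 FPKM in pericytes and 0 to 0.192 FPKM in SMCs.

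Of these 5 lists, IgE receptor signalling had the highest share of calls, with 11 of 13 genes higher in pericytes (beside 10.6% of all genes) and 0 in SMCs (beside 11.2%). Lat, an adaptor of T cells and mast cells, was higher by 5.72 (q = 2.7e-05). Syk, the kinase that the receptor recruits, had 16.0 to 49.5 FPKM in pericytes and 1.91 to 5.92 FPKM in SMCs (log2 fold change 3.01, q = 0.00239), and the call of Plcg2 was lost without pericyte replicates 1, 3 or 4 or SMC replicates 1 or 2. The γ chain Fcer1g, which macrophages and natural killer cells also use, had 246 to 601 FPKM in pericytes and 144 to 188 FPKM in SMCs (log2 fold change 1.24, q = 0.0126). Its level in SMC replicate 3 was 144 FPKM, beside 0.0513 FPKM of Fcer1a. General leukocyte genes moved the same way, with 6 of 6 higher in pericytes (also beside 10.6%) and a summed level of 4052 to 6904 FPKM in pericytes and 248 to 333 FPKM in SMCs, as did 8 of 8 lymphocyte genes (1845 to 3809 against 22.1 to 51.5 FPKM). None of these defining markers was at 0 in a group, and their part in the differences of the mast cell genes was not tested.

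**Figure D3:**
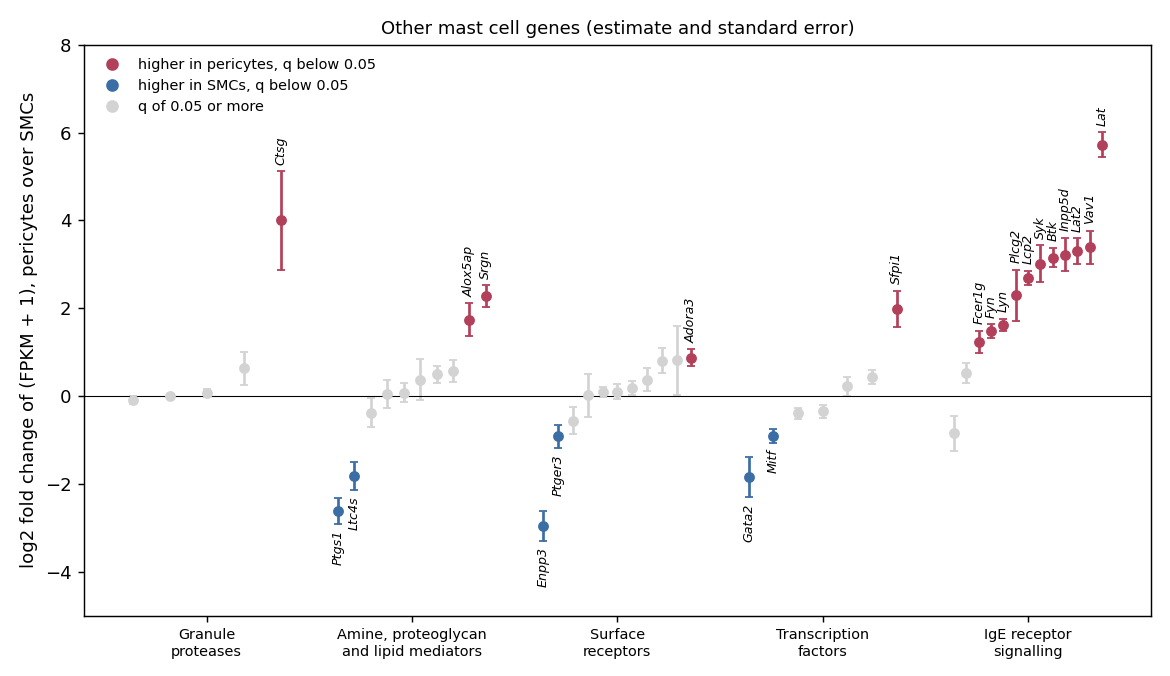
log2 fold change of (FPKM + 1), pericytes over SMCs, with its standard error on the vertical axis, for 46 other genes of mast cells in 5 lists along the horizontal axis. Red points were called higher in pericytes, blue points higher in SMCs and grey points were not called. Calls in both directions are seen in 3 lists, and the IgE receptor signalling list has 11 red points and 0 blue points.

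Basophils share Fcer1a and Ms4a2 with mast cells and store proteases of their own. These basophil proteases were measured in libraries of both groups. Mcpt8 had 87.7, 36.8, 0.601 and 6.48 FPKM in pericytes and 10.8, 16.6, 0.198 and 0 FPKM in SMCs (q = 0.508). Prss34 had 162, 34.1, 1.16 and 15.3 FPKM in pericytes and 18.4, 31.4, 0.123 and 0.0396 FPKM in SMCs (q = 0.507). Pericyte replicate 3 and SMC replicates 3 and 4 were the lowest for both genes. The 6 basophil genes summed to 12.4 to 259 FPKM in pericytes and 8.24 to 54.6 FPKM in SMCs, and 1 of them, Il4, was called higher in pericytes (16.7%, beside 10.6% of all genes). Of 7 eosinophil genes, 1 was called (14.3%, also near the share of all genes), the peroxidase Epx, at 25.2, 30.3, 17.9 and 7.62 FPKM in pericytes and 0.529, 2.79, 0 and 0.0311 FPKM in SMCs (log2 fold change 3.61, q = 0.00348). The eosinophil list summed to 162 to 1655 FPKM in pericytes and 11.7 to 160 FPKM in SMCs. The part of basophils in the values of Fcer1a and Ms4a2 was not tested.

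**Figure D4:**
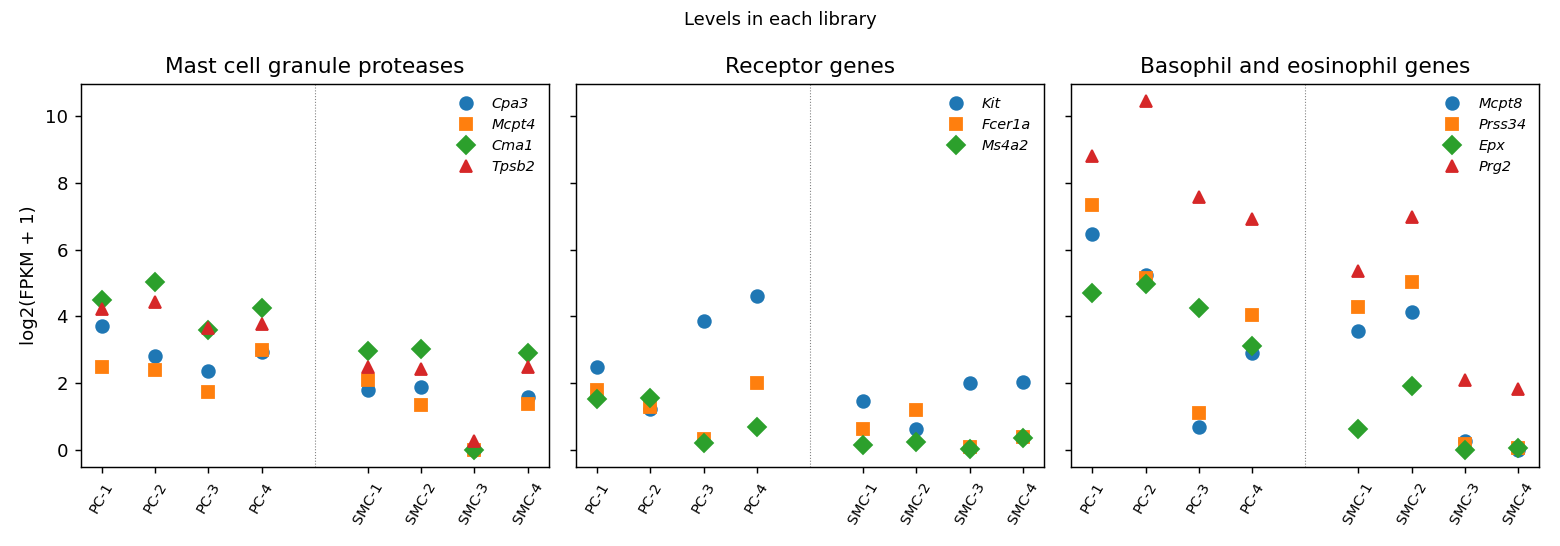
log2(FPKM + 1) on the vertical axis in each library along the horizontal axis, for the 4 mast cell proteases (left), the 3 receptor genes (middle) and 4 basophil and eosinophil genes (right). The proteases drop in SMC replicate 3 only, whereas Mcpt8, Prss34, Epx and Prg2 are low in SMC replicates 3 and 4.

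Of 5 tested ligands that act on mast cells, 3 were called higher in SMCs (beside 11.2% of all genes) and 1, Il4, higher in pericytes (beside 10.6%). Kitl, the gene of stem cell factor, had 3.70, 2.15, 5.69 and 9.43 FPKM in pericytes and 14.9, 28.0, 40.7 and 77.2 FPKM in SMCs. The groups did not overlap, and the gene fell by 2.63 on the log2 scale (q = 0.0137, or 0.0502 without pericyte replicate 1). The level of its receptor gene Kit was higher than that of Kitl in pericyte replicates 1, 3 and 4, and lower in pericyte replicate 2 and in all 4 SMC libraries. Il33, an alarm cytokine, fell by 3.08 (q = 5.6e-04) and Tslp, a cytokine of epithelia and stroma, by 1.46 (q = 7.5e-04). Il4 was higher in pericytes by 1.93 (q = 0.00504), and Il3, the cytokine in which mast cells are grown, was listed at 0 in all 8 libraries.

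The genes whose levels ran most like those of the mast cell genes were ranked by Pearson's r over the 8 libraries among the 13606 genes whose mean FPKM was 1 or more. All points share the same 8 libraries and the difference between the groups, so the values are a description. Closest to the mean log2(FPKM + 1) of the 4 proteases were Acat3 (r = 0.969), Pdpk1 (0.962), Zfp259 (0.960), Eif3d (0.956), Atic (0.952), Jmjd4 (0.949), Gm8017 (0.949), Top1mt (0.945), Mtap (0.944) and Klrb1f (0.942). In each of these 10 genes SMC replicate 3 was the lowest library, as with Acat3 at 5.51 FPKM there and 7.38 to 11.4 FPKM elsewhere. Over the 7 libraries without it, their r with the proteases was 0.851 to 0.982 and their ranks among the same genes ran from 5 to 1330. Closest to Kit were Spata2l (0.974), Trim36 (0.973), Ubash3b (0.967), 2210009G21Rik (0.966) and Aak1 (0.966). Fcer1a was nearest to Snx4 (0.920), Prdm15 (0.917), C330027C09Rik (0.914), Gm11968 (0.909) and Znf512b (0.905). For Ms4a2 the list was Bambi-ps1 (0.965), Prpf31 (0.964), Gm13012 (0.962), Pank4 (0.962) and Trav4-2 (0.960). Of these 25 genes, 0 were in the lists of mast cell or other cell type genes.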

How the data were processed

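RNA of sorted pericytes and SMCs was amplified with a SMART-Seq v4 kit for ultra low input, made into Nextera XT libraries and read as pairs. The authors checked reads with FastQC, aligned them to NCBI Build 37 and an Ensembl gene set by Bowtie2 and TopHat, and deposited 37979 rows of FPKM. The program that made the FPKM, its use of strand and the tools' versions are not given in the sources used here.

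The test was limma's (version 3.58.1, R 4.3.3, functions lmFit and eBayes) on log2(FPKM + 1), a pseudocount of 1, for the 27414 genes above 0 in at least 1 of the 8 libraries, with both groups sharing one estimate of spread and Benjamini-Hochberg adjustment. Depth came from genes with 1 annotated transcript, whose low FPKM are multiples of 1 fragment. A fitted mean fragment length of 250 to 270 bases entered this estimate, which is approximate for Tpsb2, Kit and Ms4a2, since they have several transcripts. The file's FPKM keep no count table, so no count test was run. Gene positions came from GENCODE vM1, which holds 37195 of the 37979 identifiers, 36519 with the same symbol. Python 3.11.15 made the tables and figures, through pandas 2.3.3, numpy 2.4.6, scipy 1.17.1, matplotlib 3.10.9 and Biopython 1.88.

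The 7 genes and the lists were chosen with earlier results of these data known. Genes named were the 7, members of the lists, the genes of the sort gate, and the 10 genes most like the proteases and the 5 most like each receptor gene by Pearson's r. Alternative settings were log2(FPKM + 0.1), testing only genes that reached 1 FPKM in 4 or more libraries, no filter, scaling to a common sum (TPM), quantile and median-ratio scaling, an intensity trend, the replicate block and each library left out in turn. A covariate that sets replicates 1 and 2 against 3 and 4 was chosen after seeing the data. Lists of macrophage, dendritic, endothelial, fibroblast and mural genes were also counted, and housekeeping genes were used to look for values at 0. Some genes of the lists are not reported here and are left out of the lists' counts.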

Additional observations from a re-analysis of the deposited data

Results flagged for a closer look

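In 169 groups of 4 libraries examined, 16 held a library far from the others by Dixon's measure, its gap over the group's range. Chance gives this in about 1 in 20 groups of normally spread values, which does not apply to 7 of the 16, where the other 3 libraries were at 0 and any value above 0 stands apart. For 3 members this was SMC replicate 3, at 0 FPKM for Cpa3, 0 FPKM for Cma1 and 0.192 FPKM for Tpsb2, where the other SMC libraries held 1.97 to 2.67, 6.47 to 7.16 and 4.37 to 4.57 FPKM. Mcpt4, also listed at 0 there, was not set apart by this measure, since the other SMC libraries spread from 1.53 to 3.28 FPKM. SMC replicate 3 was instead the highest of its group for Tal1 (0.941 FPKM), Ccr3 (4.06 FPKM) and Il9 (0.141 FPKM, the others at 0), and the lowest for Flt3 (2.25 FPKM).

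The other values were mostly low. Among mast cell genes, Mcpt2 was above 0 only in SMC replicate 1 (0.285 FPKM), Mcpt9 only in pericyte replicate 1 (0.0237 FPKM), and Mrgprb1 was highest in pericyte replicate 1 (0.809 FPKM). Il4 was above 0 among SMCs only in replicate 4 (0.407 FPKM). Of genes of other Kit-positive cells, Dct was above 0 only in pericyte replicate 4 (0.142 FPKM) and Slc45a2 only in pericyte replicate 1 (0.0151 FPKM). Mlana was above 0 among pericytes only in replicate 4 (0.632 FPKM) and was highest among SMCs in replicate 4 (21.8 FPKM). Hlf was highest in pericyte replicate 4 (1.29 FPKM).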

How the results depend on the processing

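All 118 values of the 7 genes over 17 alternatives were higher in pericytes, and Ms4a2 was not tested under the filter at 1 FPKM. Fcer1a was not called under any of its 17 alternatives. Cpa3 did not pass as TPM (log2 fold change 1.61, q = 0.105), with no filter (1.65, q = 0.101), with a pseudocount of 0.1 (2.63, q = 0.112) or with quantile scaling (1.60, q = 0.0588), and Tpsb2 did not pass as TPM (2.02, q = 0.0507), with no filter (2.11, q = 0.0643) or with a pseudocount of 0.1 (2.73, q = 0.0585). With no filter the 10565 genes at 0 in every library entered both the fit and the adjustment. The cause of the lost calls was not tested for any of these settings. The filter at 1 FPKM brought in Mcpt4 (1.20, q = 0.0441) and Cma1 (2.11, q = 0.0227), with fewer genes tested. Replicates 1 and 2 against 3 and 4 as a covariate, chosen after seeing the data, brought in Cma1 (2.11, q = 0.0464) and Kit (1.52, q = 0.0448). The replicate numbers pair libraries only by name, since same-numbered libraries deviated together with r from 0.0794 to 0.474 over 4 pairs and 2 of 4 pericyte libraries correlated best with their own number. The replicate block gave Mcpt4 1.20 (q = 0.0429) and Cma1 2.11 (q = 0.0347), and it ended the calls of Gata2 and Ptger3. The count of genes called, 2 (10.6% of all genes were called higher in pericytes), was 0 as TPM (7.72%), 0 with no filter (6.0%), 0 with a pseudocount of 0.1 (10.1%), 1 with quantile scaling (10%), 4 with the filter (22.1%), 4 with the block (10.9%) and 4 with the covariate (13.8%). Leaving out 1 library at a time gave counts of 0 to 3 and log2 fold changes of 1.21 to 1.85 (Cpa3), 0.80 to 1.50 (Mcpt4), 1.37 to 2.38 (Cma1), 1.56 to 2.30 (Tpsb2), 1.0 to 2.13 (Kit), 0.57 to 1.13 (Fcer1a) and 0.61 to 1.06 (Ms4a2). Of all genes tested, 2917 were called with a higher level in pericytes and 3060 with a higher level in SMCs, and as TPM these counts were 2117 and 3734. The other mast cell genes gave 13 to 18 calls higher in pericytes and 4 to 7 higher in SMCs. At the depth of these libraries Fcer1a and Ms4a2 rest on 1 to 61 and about 1 to 98 fragments.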

Other observations

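Kit is also used by melanocytes, blood progenitors and interstitial cells of Cajal, and genes of these cells were measured in the same libraries, in which 10.6% of all genes were called higher in pericytes and 11.2% higher in SMCs. Of 6 melanocyte genes, 1 was called (16.7%), and it was higher in SMCs. That gene was Mlana, with 0, 0, 0 and 0.632 FPKM in pericytes and 9.39, 8.86, 9.38 and 21.8 FPKM in SMCs (log2 fold change -3.46, limma q = 3.3e-04). The pigment enzymes Tyr and Dct did not exceed 0.0541 and 0.142 FPKM in any library. Of 5 progenitor genes, Flt3, a receptor tyrosine kinase related to KIT, had 15.9 to 37.2 FPKM in pericytes and 2.25 to 3.35 FPKM in SMCs (log2 fold change 2.48, q = 7.0e-04), and Myb, a transcription factor of progenitors and of developing lymphocytes, was higher by 3.20 (q = 1.0e-04). Cd34, which endothelial cells and fibroblasts also carry, fell by 2.98 (q = 0.00202). Of 4 genes of Cajal cells, Etv1 and Thbs4 were called higher in SMCs and 0 were called higher in pericytes. Ano1, the chloride channel that marks these cells, had 6.60, 1.91, 7.56 and 13.2 FPKM in pericytes and 7.21, 7.49, 34.0 and 38.1 FPKM in SMCs (q = 0.286), and in pericytes its lowest and highest libraries were those of Kit. The part of these cells in the level of Kit was not tested.

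Other cell type lists were counted in the same fit. Macrophage genes were called higher in SMCs in 6 of 9 cases, endothelial genes in 5 of 6, fibroblast genes in 7 of 8 and mural genes in 1 of 10, beside 11.2% of all genes. The mural gene was Rgs5, whose call was lost without pericyte replicate 1 or 3 or SMC replicate 3 or 4 (limma q up to 0.0695). Of the macrophage calls, that of Emr1 held only without pericyte replicate 4, among the 8 fits that left out a library. Of the endothelial calls, that of Cdh5 was lost without pericyte replicate 1 or 3 or SMC replicate 3. The calls in the opposite direction were 1 fibroblast gene, Dcn, which was listed at 0 in all 4 SMC libraries, and 2 of 6 dendritic cell genes, beside 10.6% of all genes. An exact 0 can be a failed estimate, as said for Ubb, and whether it was one for Dcn was not tested. Of the dendritic cell calls, that of Itgax held only without pericyte replicate 1 or 2, among the 8 fits that left out a library. Of 11 genes that every cell uses, 10 were tested and 4 were called higher in pericytes (40%, beside 10.6%), 2 of them in every fit without a library.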
